A study of Mus musculus with 4 samples.

Results

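The cells described here are the 1195 mesenteric lymph node CD4 T cells that the authors' second clustering placed in subset s3, led by Ly6c1, Klf2, Igfbp4, Ifit3 and S1pr1. They were chosen as the cells that passed the authors' filter and carry the value s3, out of 9041 cells with any subset value and 16948 analysed cells. The study compared male mice of 2 strains, each kept germ-free or colonized with fecal microbiota of specific-pathogen-free mice. The 4 groups were colonized Foxp3CNS1- mice, germ-free Foxp3CNS1- mice, colonized Foxp3GFP mice and germ-free Foxp3GFP mice, and values of all libraries are listed below in this order. For each group, mesenteric nodes of 3 mice were pooled, for the colonized groups 9 days after colonization, GFP+ and GFP- CD4 T cells were sorted and mixed at 50% each, and 1 droplet single-cell library of about 5000 targeted cells was made. Foxp3CNS1- mice lack CNS1, an intronic enhancer of Foxp3, while the Foxp3GFP strain served as the comparison. No label gives the age of the mice.

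Regulatory T (Treg) cells depend on the transcription factor Foxp3 and arise in the thymus or, outside it, from conventional CD4 T cells, a step in which CNS1 takes part. Resting T cells recirculate: the factor Klf2 drives expression of the sphingosine phosphate receptor S1pr1, needed to leave lymph nodes. Activated and effector Treg cells lose this program and gain costimulatory and inhibitory receptors such as Tnfrsf9, Ctla4 and Lag3. Type I interferon acts through the factor Irf9 and its partners on a sequence called the ISRE and switches on antiviral genes such as Isg15 and the Ifit family.

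Subset s3 held 584, 224, 245 and 142 cells in the 4 libraries, with 1732781, 517402, 694075 and 328381 unique molecular identifiers (UMIs, counted mRNA molecules). The median cell had 2703, 2062, 2580 and 2078.5 UMIs. With 1 library of pooled mice per group, no difference between groups has a replicate check, no test was made, and each 95% interval below covers counting error only. A UMI of the T cell receptor subunit gene Cd3e was held by 60.5% of s3 cells and one of Cd4 by 30.6%. The share was 0.753% for Cd8a, 0.418% for the B cell gene Cd79a and 0.669% for the myeloid gene Lyz2. Not all genes of other cells were that rare. A list of 12 B cell genes summed to 740 per 1000000 UMIs in s3 and 1315 in the other subset cells. A myeloid list summed to 141 and 177. At least 10 immunoglobulin UMIs were held by 23 s3 cells. A total of 18 s3 cells carried a barcode that also occurs in another library. Of the cells with a subset, s3 made up 16.5% (95% interval 15.3 to 17.8%), 11.9% (10.5 to 13.5%), 11.9% (10.6 to 13.4%) and 9.03% (7.66 to 10.6%). These shares are given as values only, because genes that lead s3 also differed between libraries in the other subset cells, as in 13 of 20 leading genes for colonized against germ-free Foxp3GFP mice, whose intervals left out 0.

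Against the other cells with a subset, s3 showed higher levels of genes of recirculating, resting T cells. Levels are UMIs of a gene per 1000000 UMIs (CPM), both summed over the cells of a group. Klf2 was at 1041, 968, 958 and 1157 CPM in s3 and at 389, 348, 447 and 428 CPM in the other subset cells. Its lowest s3 library was thus above the highest of the other cells, and the pooled log2 ratio was 1.34 (95% interval 1.29 to 1.40). S1pr1 was at 155, 186, 139.8 and 228 CPM in s3 and 61.8, 62, 69.6 and 86.8 CPM in the others, a log2 ratio of 1.27 (1.13 to 1.41). Ly6c1, a surface antigen of the Ly6 family that marks memory and some resting T cells, was at 164, 110.2, 171 and 140.1 CPM in s3. In the other subset cells Ly6c1 was at 46.3, 23.7, 62.5 and 44 CPM. Its groups did not overlap, and its log2 ratio of 1.74 (1.59 to 1.90) was the largest of the 20 leading genes.

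Among the other leading genes, Igfbp4, a naive T cell gene, stood at 138 CPM in s3 and 49.3 CPM in the other subset cells over all libraries. Bcl2, the survival factor, stood at 443 and 276 CPM, and Lef1, a factor of naive T cells, at 223 and 139 CPM. Txk, a Tec family kinase, stood at 145 and 74.9 CPM, and the membrane protein gene Ms4a4b at 1735 and 790.5 CPM. Itgb1, the integrin beta 1 chain found on memory T cells, stood at 87.7 CPM in s3 against 45.1 CPM. The rest of the 20 were Cd7, Tmem71, Ripor2, Slc17a9, Stk38, Atp1b3, Vps37b, Arl4c and AB124611, with pooled log2 ratios of 0.71 to 1.26, and the interferon-induced Ifit3. Ifit3 was at 102, 9.66 (5 UMIs), 186 and 64 CPM in s3. In the other subset cells Ifit3 was at 47.1, 5.15, 64.6 and 5.47 CPM. It was higher in the colonized library of each strain in both sets of cells, as was Ms4a4b, which was at 1887, 1274, 1844 and 1434 CPM in s3 and at 861, 649.5, 879 and 623 CPM in the other subset cells. All 20 were chosen for being higher in s3 in each library, so these ratios describe the choice. Over all genes, 57 of 10417 tested (0.547%) were at least 2-fold higher in s3 and higher in each library, and 543 (5.21%) were at least 2-fold lower and lower in each.

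**Figure D1:**
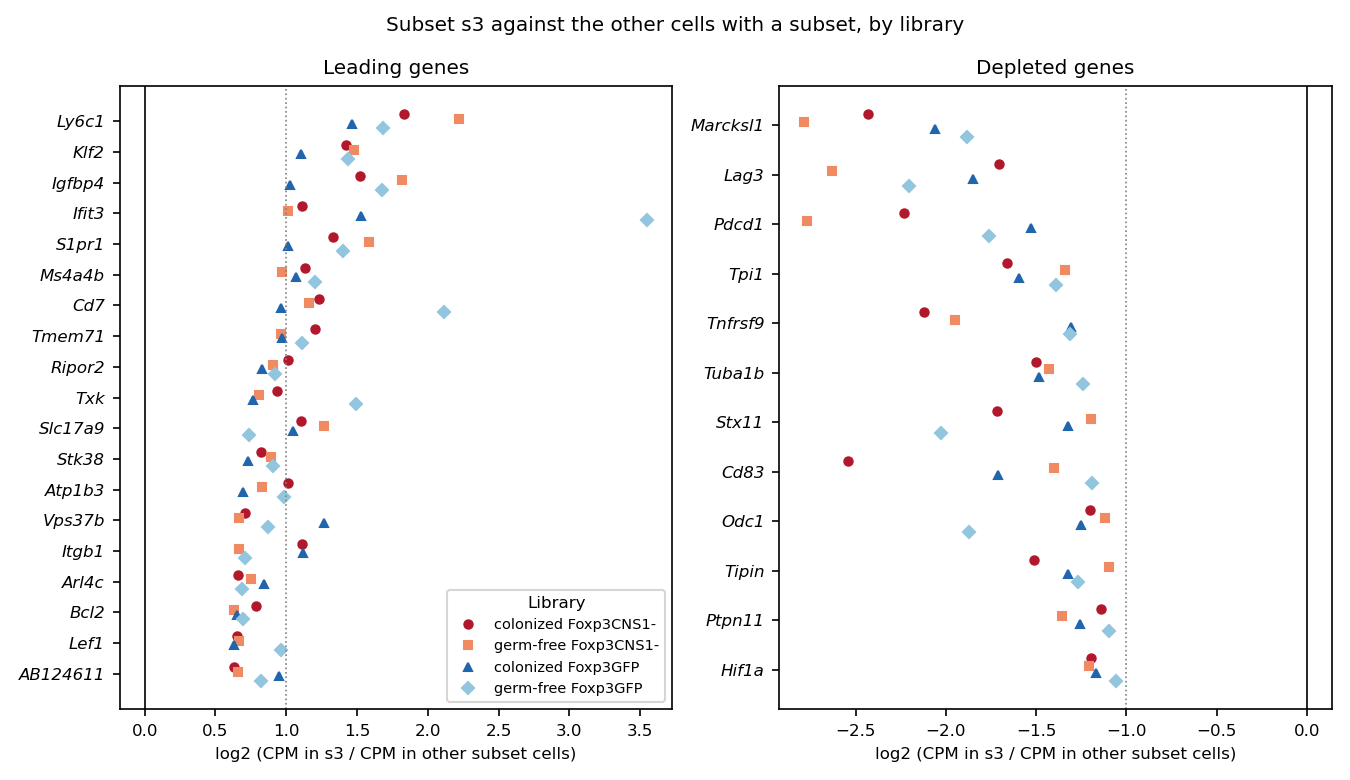
Log2 ratio of the CPM in s3 to the CPM in the other subset cells (x axis) for 19 of the 20 leading genes (left) and the 12 depleted genes (right), with a marker per library and a dotted line at a 2-fold difference. All markers of the leading genes lie above 0 and all of the depleted genes below 0, and Ifit3 and Cd7 spread most among the leading genes, to 3.55 and 2.11 in germ-free Foxp3GFP mice.

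Genes that were lower in s3 belong to activation, inhibitory signalling and growth. Pdcd1, which encodes the inhibitory receptor PD-1, was at 18.5, 17.4, 25.9 and 30.5 CPM in s3 and 88.1, 125, 76.8 and 108 CPM in the other subset cells, with a log2 ratio of -2.17 (-2.54 to -1.82). Lag3, another inhibitory receptor, was at 56.6, 29, 54.7 and 39.6 CPM in s3 against 185, 185, 200 and 190 CPM. Tnfrsf9, the costimulatory receptor 4-1BB, was at 36.9, 38.7, 57.6 and 60.9 CPM in s3 against 162, 153, 144 and 155 CPM. No s3 library reached the lowest of the other cells for these 3 receptors. Marcksl1, a regulator of actin, had the largest depletion of the 12 depleted genes, at 15 CPM in s3 and 77.8 CPM in the others. The glycolytic enzyme gene Tpi1 was at 51 and 152 CPM, the tubulin gene Tuba1b at 177 and 479 CPM, and Cd83, an activation antigen, at 24.4 and 91.6 CPM. Stx11, Odc1, Tipin, Ptpn11 and Hif1a completed the 12, at log2 ratios of -1.59 to -1.24. All 12 were chosen for being lower in s3 in each library, so these ratios and the lack of overlap describe the choice.

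Lists of genes by role gave the same description, with every list read against 10.1% of all tested genes higher in each library at any size and 20.1% lower. Of the 23 proliferation genes, all 23 were lower in s3 in each library and 21 at least 2-fold, with a median log2 ratio of -2.77 against -0.14 for all genes. Mki67, the proliferation antigen, was at 3.46, 1.93, 7.2 and 6.09 CPM in s3 against 35.7, 21.7, 37.3 and 29.5 CPM in the other subset cells. Of the 13 naive T cell genes 12 were higher in each library, with a median of 0.70, the exception being Tcf7 with 3 libraries higher and 1 lower. Of the 10 resting Treg genes, 7 of which are also on the naive list, 8 were higher (median 0.68). In the other direction, 14 of 17 follicular helper genes, 10 of 18 effector Treg genes, 7 of 10 genes of peripherally induced Treg cells and 10 of 16 glycolysis genes were lower in each library. Among costimulatory TNF receptors, 5 of 7 were lower and none higher: Tnfrsf4 (OX40) stood at 316 CPM in s3 and 730.2 CPM in the others. Cd27, another member of the family, stood at 433 and 430.5 CPM. The integrin genes Itgb7 (428 against 304 CPM) and Itga4 (109.7 against 88.9 CPM), which together form a gut homing integrin, were higher in s3 in each library. Ccr9, the small bowel homing receptor, was lower in each (30.9 against 57.8 CPM).

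The Treg core list held genes of both kinds. Nrp1, a receptor of thymus-derived Treg cells, was higher in s3 in each library (74.9 against 56.5 CPM), and 7 of the 13 members were lower in each. Foxp3 itself was at 98.7, 102, 127 and 109.6 CPM in s3 and 118, 126, 138 and 131 CPM in the other subset cells, a log2 ratio of -0.25 (-0.42 to -0.09). The 3′ counts read Foxp3 mRNA and say nothing of the CNS1 deletion. A Foxp3 UMI was found in 258 s3 cells, 21.6% (19.3 to 24%), with a median of 2462 UMIs per cell. In subset s5, whose Foxp3 share was the lowest, 5.22% of cells held one at a median of 3335 UMIs, and among the cells with no subset 8.46% at 2627 UMIs. With each cell thinned to 1000 UMIs, leaving out 4 s3 cells, 0 s5 cells and 44 cells with no subset, the shares were 10.6% in s3 (8.89 to 12.5%), 1.74% in s5 and 3.82% in cells with no subset. The s3 share was above that of both sets at matched depth. It was below the 19.9% of s0 and the 18.3% of s4 after thinning, whose intervals did not overlap that of s3, while s1 (11.6%) and s2 (12.6%) had intervals that did. Without thinning, the shares were 36.9% in s0, 35% in s4, 26.6% in s1, 28.1% in s2 and 27.9% in all other subset cells. By library the s3 share was 21.4, 16.5, 26.9 and 21.1%, and 9.95, 10.4, 12.2 and 10.6% after thinning, with intervals that overlap.

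**Figure D2:**
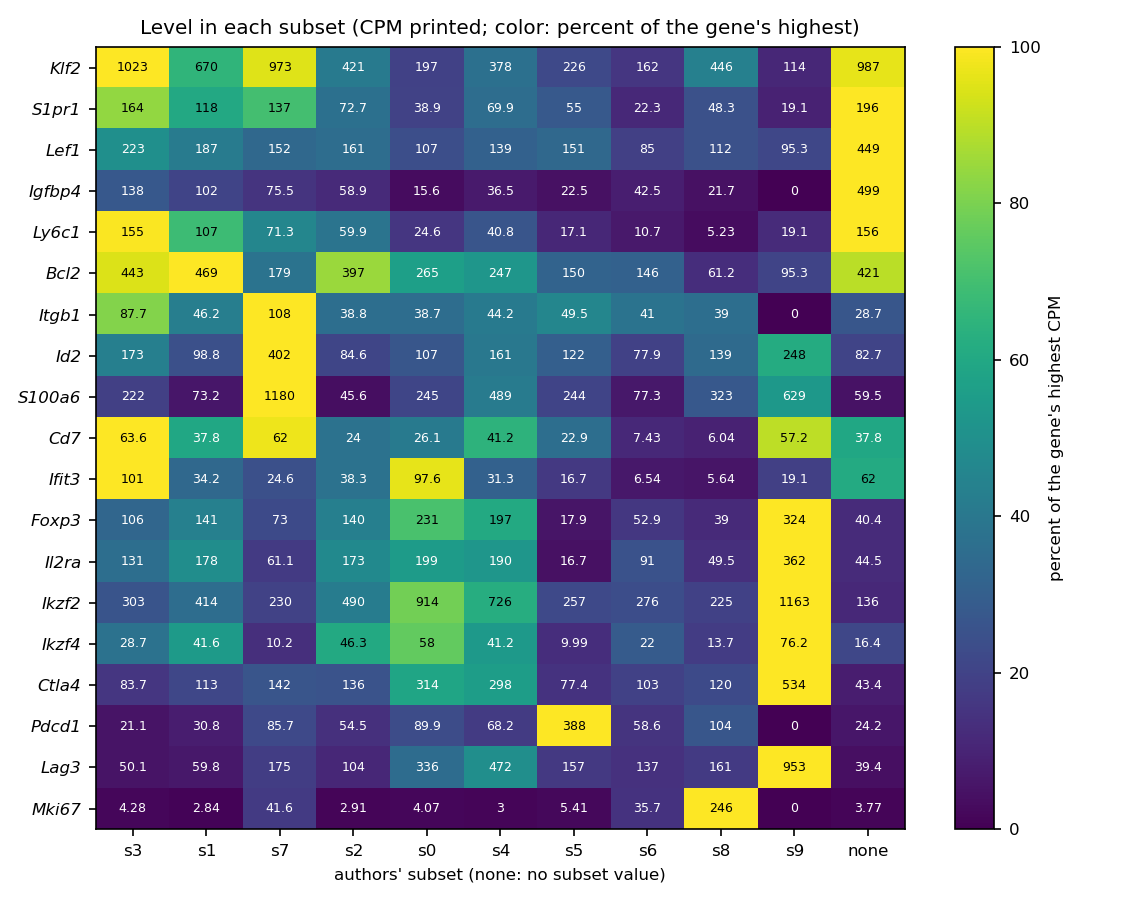
Levels of 19 genes (rows) in s3, in each other subset and in the analysed cells with no subset (columns), with the CPM printed in each cell and colored as a percent of the gene's highest level; s9 has 17 cells. The s3 column has the highest Klf2, Cd7 and Ifit3 among the columns, but for each of them another column is nearly level. Pdcd1, Lag3 and Mki67 are near their lowest in s3.

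Across the subsets the profile of s3 was closest to s1 by Pearson's r over 10417 genes of log levels pooled over libraries (0.986), followed by cells with no subset (0.981) and s2 (0.977). These correlations are across genes of the same 4 libraries and are a description. Of the 20 leading genes 13 were higher in s3 than in the next highest subset. Ly6c1 led s1 by 155 to 107 CPM, and Klf2 was level with s7 (1023 and 973 CPM). Cd7 was also level with s7 (63.6 and 62 CPM), and Ifit3 was nearly level with s0 (101 and 97.6 CPM). Against the cells with no subset, Igfbp4 was lower in s3 (138 against 499 CPM) and Ly6c1 was level (155 and 156 CPM). The genes that lead s3 among the subsets were thus present, some at higher levels, in cells outside the second clustering.

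Against s1, the subset with the nearest profile, s3 had more of the genes of effector and memory cells and less of the Treg genes. These contrasts were chosen after the data were seen. Only 17 of 8083 genes (0.21%) were at least 2-fold higher in s3 and higher in each library, and 20 (0.247%) lower. Of 14 memory or effector genes, 12 were higher in s3 than in s1 in each library, with a median log2 ratio of 0.91, where 11.1% of all genes were higher and 7.18% lower in each. S100a6, a calcium-binding protein gene of activated and memory cells, was at 226, 226, 218 and 198 CPM in s3 against 86.3, 37.1, 87.6 and 69.7 CPM in s1. Id2, a regulator of effector differentiation, was at 173, 207, 146 and 179.7 CPM against 109, 137, 81.5 and 64.1 CPM. Both genes were higher in s3 in each library, and for each the lowest s3 library was above the highest s1 library. Both came from a ranking for genes higher in s3 in each library, so these values describe the choice. Of the 13 Treg core genes 7 were lower in s3 than in s1 in each library and none higher. They included Il2ra, the IL-2 receptor alpha chain (132, 108, 156 and 113 CPM against 175, 156, 197 and 183 CPM), Ikzf4 (28.7 against 41.6 CPM) and Foxp3 (106 against 141 CPM). Gata1, a transcription factor gene whose level was highest in s1, stood at 29.9 CPM in s3 and 48.1 CPM in s1. Of the 13 naive genes 8 were higher in s3 in each library. Of 37 interferon-stimulated genes, 18 were higher in s3 than in s1 in each library and none lower.

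Against the cells with no subset, s3 was higher in all 13 Treg core genes and all 14 memory or effector genes in each library, where 26.1% of all genes were higher and 6.05% lower. Of 9756 genes 192 (1.97%) were at least 2-fold higher in s3 and 123 (1.26%) lower. Nrp1 was at 61.8, 94.7, 82.1 and 97.4 CPM in s3 against 14.8, 24, 20.7 and 27.4 CPM in the cells with no subset. Rgs1, a regulator of G protein signalling, was at 235, 284, 249 and 222 CPM against 66.8, 77.9, 81.5 and 64.5 CPM. The groups did not overlap for either gene, but both came from a ranking for genes higher in s3 in each library. Of the 13 naive genes 9 were lower in s3 in each library. Pdlim4 stood at 7.33 CPM in s3 and 70.9 CPM in the cells with no subset, Dapl1 at 79.1 and 266 CPM, and Lef1 at 223 and 449 CPM. Klf2, also a naive gene, stood at nearly the same level in both (1023 and 987 CPM). Subset s7, which shares a high Klf2 level, differed more: 92 of 6531 genes (1.41%) were at least 2-fold higher in s3 and 169 (2.59%) lower. Those lower in s3 included S100a4 (52.6 against 372 CPM) and the mitotic gene Birc5 (2.44 against 149 CPM). All 12 cytoskeleton genes were lower in s3 than in s7 in each library, where 19.3% of all genes were lower and 7.99% higher. Of the 14 memory or effector genes 10 were lower in s3 than in s7 in each library and none higher. Against s1, all 12 cytoskeleton genes were higher in s3 in each library, where 11.1% of all genes were higher.

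**Figure D3:**
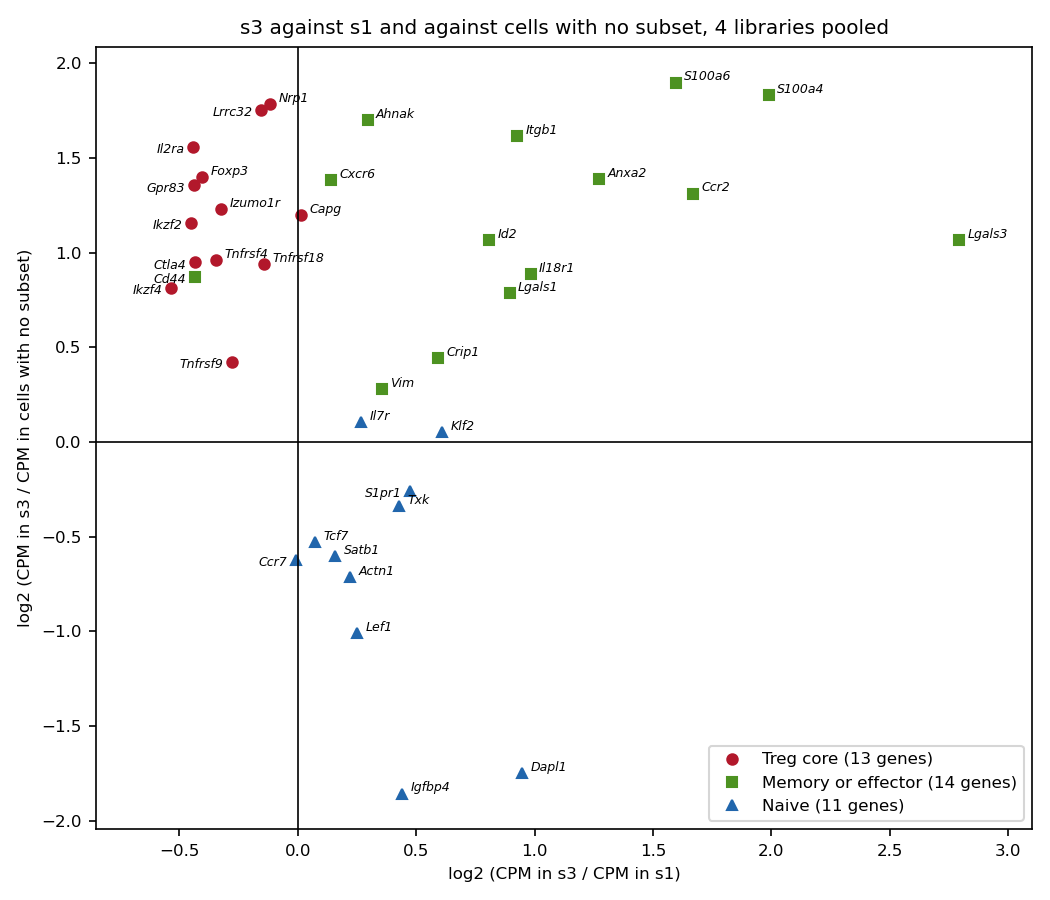
Log2 ratio of s3 to s1 (x axis) and of s3 to the cells with no subset (y axis) for 38 genes of the Treg core, memory or effector and naive lists with at least 50 UMIs in s3, pooled over the libraries. All Treg core genes but Capg lie left of 0 and above 0, the memory or effector genes but Cd44 lie right of 0 and above 0, and most naive genes lie right of 0 and below 0.

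By the authors' first clustering, s3 combined 888 cells (74.3%) of cluster 5, 306 cells (25.6%) of cluster 0 and 1 cell of cluster 3. Cluster 0 supplied 25.7, 17, 37.6 and 18.3% of s3 in the 4 libraries. The genes below were found from these same cells, all with the same direction in each library, and are a description. In the cells from cluster 5, Id2 stood at 211 CPM against 57.9 CPM in those from cluster 0, a log2 ratio of 1.87 (1.44 to 2.33) and higher in each library. Gpr183, a chemoattractant receptor, stood at 111 against 38.2 CPM, the galectin gene Lgals1 at 421 against 178 CPM, Maf at 107 against 44.3 CPM and Tcf7 at 210.3 against 102 CPM. In the other direction, cells from cluster 5 had less Il2ra (98.1 against 229 CPM), Lrrc32 (56.6 against 149 CPM), Ikzf4 (20.3 against 52.9 CPM), Gata1 (22.4 against 52.9 CPM) and Ly6c1 (127 against 241 CPM). The interferon-induced GTPase genes Gbp2 (93.2 against 286 CPM) and Igtp (149 against 276 CPM) were also lower there. A Foxp3 UMI was held by 18.7% (16.2 to 21.4%) of the cells from cluster 5 and 29.7% (24.7 to 35.2%) of those from cluster 0, and after thinning by 9.93 and 12.2%, whose intervals overlap.

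Cells of s3 with a Foxp3 UMI differed from those without one in some of the same genes, such as Il2ra, Id2 and Tcf7, and in others. Il2ra stood at 249 CPM in cells with a Foxp3 UMI and 97.2 CPM in those without, Gpr83 at 196 and 83.8 CPM, Ikzf2 (Helios) at 463 and 257 CPM, and Ctla4 at 134 and 69.2 CPM. All 4 were higher in each library. In contrast Id2 stood at 35.6 and 212 CPM, Tcf7 at 67.1 and 217 CPM, Tnfsf8 (CD30 ligand) at 13.7 and 62.2 CPM, Cd40lg, a ligand of helper T cells, at 16.4 and 44.5 CPM, and Itgb1 at 42.4 and 101 CPM. All 5 were lower in each library. Both sets of genes came from a ranking on these same cells in which every listed gene had the same direction in each library. They are a description of the split. Cells without a Foxp3 UMI include cells whose Foxp3 mRNA was not captured, so the split does not separate Treg cells from other cells. Klf2 was at 976 CPM with and 1037 CPM without a Foxp3 UMI, and all 20 leading genes were higher in s3 than in the other subset cells when only cells with a Foxp3 UMI were used.

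Between colonized and germ-free mice, genes of the interferon-stimulated list were higher in s3 of colonized mice. In Foxp3GFP mice 39 of 2497 genes (1.56%) with at least 50 UMIs were at least 2-fold higher in colonized mice and 21 (0.841%) lower. In Foxp3CNS1- mice the counts were 62 of 4496 (1.38%) and 34 (0.756%). The interferon-stimulated list supplied 13 of the 39 and 15 of the 62 higher genes and none of the lower ones. Isg15, a ubiquitin-like modifier, was at 219 and 299.7 CPM in s3 of colonized Foxp3CNS1- and Foxp3GFP mice, against 23.2 and 82.2 CPM in germ-free ones. Irf7, an interferon response factor, was at 114 and 166 CPM against 19.3 and 36.5 CPM, and Ifit1, which binds foreign RNA, at 140.2 and 196 CPM against 13.5 and 27.4 CPM. For each of these genes both colonized libraries were above both germ-free ones. The log2 ratios of colonized to germ-free in Foxp3CNS1- and Foxp3GFP mice were 3.24 (2.42 to 4.20) and 1.87 (1.28 to 2.50) for Isg15, 2.56 (1.65 to 3.64) and 2.18 (1.32 to 3.17) for Irf7, and 3.37 (2.31 to 4.70) and 2.84 (1.87 to 4.0) for Ifit1.

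A total of 13 genes were at least 2-fold higher in both comparisons: Bst2, Dtx1, Gadd45g, Gbp2, Ifit1, Ifit1bl1, Ifit3, Irf7, Isg15, Ly6a, Plac8, Rtp4 and Usp18. Within the Ifit family, whose members are close copies of each other, reads may be split between genes. To show what some of these genes share, the 250 bases before the start of 6 of them follow. They are from RefSeq on GRCm38.p6, 5′ to 3′ on the gene's strand. Matches to the ISRE (GAAA, any 2 bases, GAAA) on either strand are in capitals. Where matches overlap they form a single run of capitals.
Isg15, chr4:156200819-156201068, - strand: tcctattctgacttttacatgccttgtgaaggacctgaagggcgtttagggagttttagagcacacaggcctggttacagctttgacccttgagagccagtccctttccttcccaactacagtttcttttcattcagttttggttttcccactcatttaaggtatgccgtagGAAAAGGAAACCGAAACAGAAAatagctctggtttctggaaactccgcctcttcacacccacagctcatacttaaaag
Ifit1, chr19:34640639-34640888, + strand: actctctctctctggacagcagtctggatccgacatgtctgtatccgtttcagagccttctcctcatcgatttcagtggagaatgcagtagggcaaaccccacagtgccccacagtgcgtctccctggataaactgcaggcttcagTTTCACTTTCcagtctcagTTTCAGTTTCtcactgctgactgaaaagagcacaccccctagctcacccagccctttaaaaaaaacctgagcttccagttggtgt
Ifit3, chr19:34583279-34583528, + strand: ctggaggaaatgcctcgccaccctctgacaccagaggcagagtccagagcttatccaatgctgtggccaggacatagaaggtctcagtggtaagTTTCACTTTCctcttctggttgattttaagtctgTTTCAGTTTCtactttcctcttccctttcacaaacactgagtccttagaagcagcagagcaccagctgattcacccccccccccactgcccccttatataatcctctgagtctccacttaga
Bst2, chr8:71537473-71537722, - strand: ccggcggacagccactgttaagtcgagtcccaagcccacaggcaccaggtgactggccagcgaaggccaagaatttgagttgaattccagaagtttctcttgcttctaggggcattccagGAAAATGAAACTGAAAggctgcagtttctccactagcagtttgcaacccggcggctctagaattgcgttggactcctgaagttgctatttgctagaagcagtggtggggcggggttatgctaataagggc
Gbp2, chr3:142620413-142620662, + strand: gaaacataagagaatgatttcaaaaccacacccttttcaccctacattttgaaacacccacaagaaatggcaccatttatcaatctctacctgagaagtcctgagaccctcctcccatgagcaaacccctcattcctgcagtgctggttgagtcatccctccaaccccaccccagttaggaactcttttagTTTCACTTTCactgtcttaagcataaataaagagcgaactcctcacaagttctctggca
Irf7, chr7:141266425-141266674, - strand: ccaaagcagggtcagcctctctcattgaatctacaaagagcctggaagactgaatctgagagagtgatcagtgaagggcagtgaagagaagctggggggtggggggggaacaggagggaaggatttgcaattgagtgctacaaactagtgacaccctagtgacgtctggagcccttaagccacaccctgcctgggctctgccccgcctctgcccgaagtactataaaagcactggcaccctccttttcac
Isg15 holds 3 overlapping matches, the first 78 bases before the start, Ifit1 2 matches at 104 and 85 bases, Ifit3 2 at 156 and 122 bases, Bst2 2 overlapping ones from 130 bases and Gbp2 1 at 59 bases. Irf7 is shown as a member without a match in these letters. Dtx1, Gadd45g and Plac8, not printed, had no match in their windows either. In windows reaching 50 bases past the start, 6 of the 10 genes with a window among the 13 (60%) held a match, as did 20 of 33 genes of the interferon-stimulated list (60.6%). The share was 3.96% of 10050 genes in the count table and 3.44% of 32851 windows. A match is a run of letters and not evidence of binding.

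Of the interferon-stimulated list, 30 genes had at least 50 UMIs in the Foxp3CNS1- comparison and 24 in the Foxp3GFP one. Higher in colonized mice were 30 of 30 in Foxp3CNS1-, where 47.3% of all genes were higher and 52.7% lower, and 23 of 24 in Foxp3GFP, where 49.9% were higher and 50.1% lower. The median log2 ratios were 1.0 in Foxp3CNS1- and 1.03 in Foxp3GFP mice, against -0.02 and -0.00 for all genes. In the other subset cells the same genes had medians of 0.72 and 1.11, so the list was higher after colonization there too, and no test set s3 apart from them. Bst2 (tetherin) was at 180.1 and 226 CPM in colonized Foxp3CNS1- and Foxp3GFP mice against 69.6 and 54.8 CPM in germ-free ones. Ly6a (Sca-1), an interferon-induced surface antigen, was at 573 and 756 CPM against 207 and 174 CPM. Gbp2 was at 152 and 213 CPM against 59.9 and 60.9 CPM. Plac8, a gene of effector and memory T cells, was at 83.1 and 261 CPM against 9.66 and 15.2 CPM, its Foxp3GFP value of 181 UMIs lying in 40 cells. Cells with a UMI of the heat shock genes Hspa1a or Hspa1b made up 8.90 and 10.6% of s3 in colonized Foxp3CNS1- and Foxp3GFP mice, against 0.446 and 0% in germ-free ones (0 of 142 cells, which allows a share of up to 2.11%). In the other subset cells these shares were 7.12 and 8.35% in colonized mice against 0.241 and 0.49% in germ-free ones. In the cells with no subset they were 11.5 and 11.3% against 0.424 and 0.0831%, so the difference was not particular to s3. Without the s3 cells that held such a UMI, the medians of the interferon-stimulated list were 1.06 in Foxp3CNS1- and 1.04 in Foxp3GFP mice.

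**Figure D4:**
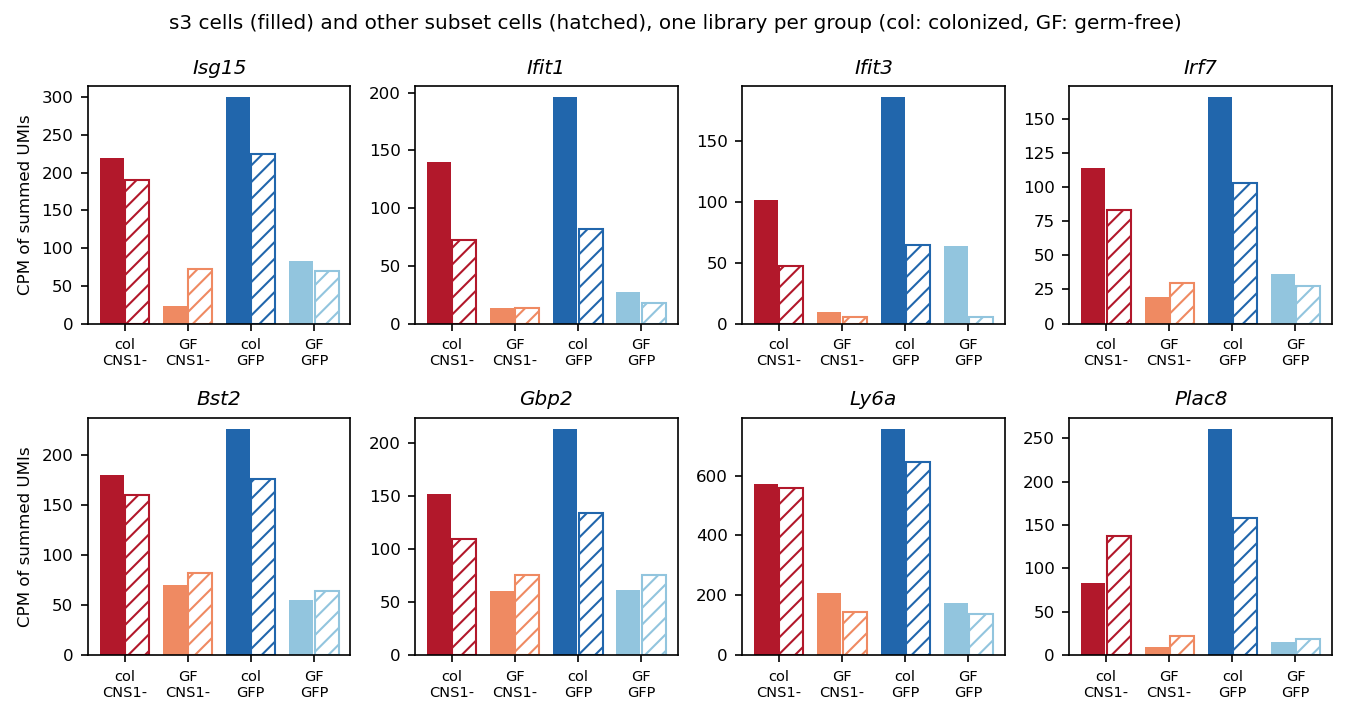
CPM (y axis, from 0) of 8 interferon-stimulated or colonization-associated genes in s3 (filled bars) and in the other subset cells (hatched bars), with 1 bar pair per library and no replicates. The colonized library is above the germ-free library of its strain in all 8 panels, and Isg15 in s3 of germ-free Foxp3CNS1- mice (23.2 CPM) is lower than in the other subset cells of that library (72.3 CPM).

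**Figure D5:**
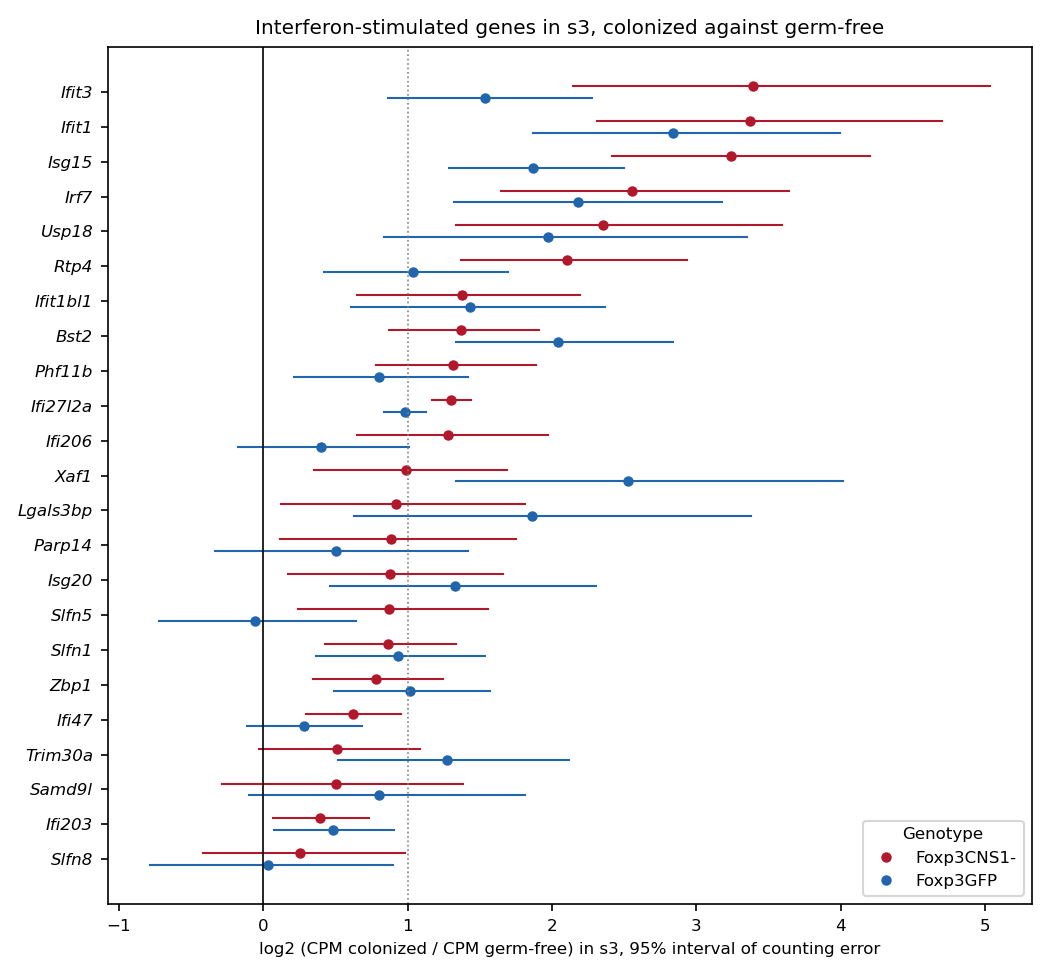
Log2 ratio of colonized to germ-free CPM in s3 (x axis) with 95% intervals of counting error, for 23 interferon-stimulated genes with at least 50 UMIs in both strains. All 23 points of Foxp3CNS1- and 22 of Foxp3GFP are above 0, and the exception is Slfn5 at -0.06 in Foxp3GFP.

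Other genes among the highest ratios were Xaf1, an apoptosis-linked gene, in Foxp3GFP mice (105 CPM in colonized against 18.3 CPM in germ-free mice) and Rtp4 and Usp18 in Foxp3CNS1- mice (133 against 30.9 CPM and 79.1 against 15.5 CPM). Ifit3b had 66 UMIs in 36 cells of colonized Foxp3CNS1- mice and 0 in germ-free ones, which makes it at least 6.57-fold higher when 3 counts stand for the germ-free library. On the lower side in Foxp3GFP mice, Tox, a factor of persistent T cell stimulation, was at 51.9 CPM in colonized and 134 CPM in germ-free mice, and the histone variant gene H2afz at 800 and 1267 CPM. Dapl1 was at 50.4 and 113 CPM, but 38.9% of its UMIs lay in 3 cells. Cirbp, a cold-inducible RNA-binding protein gene, was at 218 and 359 CPM and Mycbp2 at 86.4 and 164 CPM. Sms, Tiprl and Cdc5l had 51 to 57 UMIs over both libraries and log2 ratios of -1.29 to -1.23.

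In Foxp3CNS1- mice the lower genes were others. Maf, a factor of Treg and helper cells, was at 66.4 CPM in colonized and 153 CPM in germ-free mice, a log2 ratio of -1.20 (-1.63 to -0.77). Cd83 was at 13.3 and 56 CPM in Foxp3CNS1- mice, and at 14.4 and 54.8 CPM in Foxp3GFP mice, where it had fewer than 50 UMIs and no ratio was taken. It was lower in colonized mice in the other subset cells as well (78.8 against 150 CPM in Foxp3CNS1- mice). The chemokine gene Ccl5 was at 44.4 and 120 CPM, with 35.3% of its UMIs in 3 cells. Brd9, a chromatin remodelling subunit, was at 53.7 and 114 CPM, and Mir142hg, Fam129a and Bcl2a1d had log2 ratios of -1.51 to -1.30. Lyz2, at 4.04 and 129 CPM, rested on 2 germ-free cells with 67 UMIs and is not a value of the subset. Of the Treg core genes 6 of 13 were higher in colonized Foxp3CNS1- mice and 6 of 12 in colonized Foxp3GFP mice, near the shares of all genes, and none by 2-fold in either direction. Ctla4, for one, was at 74.4 and 95.1 CPM in colonized Foxp3CNS1- and Foxp3GFP mice against 85 and 107 CPM in germ-free ones. The naive list had 9 of 12 genes higher in colonized Foxp3CNS1- mice and 4 of 12 in colonized Foxp3GFP mice, where 47.3 and 49.9% of all genes were higher. Its median log2 ratios were 0.11 and -0.29. In Foxp3CNS1- mice 0 of these genes were 2-fold apart, and in Foxp3GFP mice 1 was, on the lower side. The difference between the strains was not tested.

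Between Foxp3CNS1- and Foxp3GFP mice fewer genes stood apart. In germ-free mice 11 of 2158 genes (0.51%) were at least 2-fold higher in Foxp3CNS1- and 5 (0.232%) lower. Txk was at 90.8 CPM in Foxp3CNS1- and 186 CPM in Foxp3GFP mice, a log2 ratio of -1.03 (-1.61 to -0.46), and was lower in the other subset cells too, at -0.34. H2afz was at 750 and 1267 CPM, Ifi27l2a at 995 and 1440.4 CPM, Igtp at 71.5 and 143 CPM, Ifi206 at 44.5 and 104 CPM, Lfng at 145 and 249.7 CPM and Batf, an activation factor, at 65.7 and 131 CPM. These 6 were named because their intervals in s3 lay below 0, so the intervals describe the choice. In the other subset cells the ratios of Batf, Ifi27l2a and Igtp were 0.18, 0.07 and 0.01, and those of H2afz, Ifi206 and Lfng are not given here. No test set s3 apart from the other subset cells. Higher in Foxp3CNS1- were Ppp3cc, a calcineurin subunit (94.7 against 33.5 CPM), the kinase gene Matk (104 against 42.6 CPM) and Cd74, the invariant chain (126 against 57.9 CPM), with Fam173a, Bola2, Ndufc1 and S100a13 at log2 ratios of 0.72 to 0.97. For Cd74, 48.8% of the UMIs lay in 3 cells, without which the ratio was -0.29. The B cell list, summed, was at 848 CPM in Foxp3CNS1- and 697 CPM in Foxp3GFP s3 cells and was mostly Ighm and Cd74. Cd79a had 7 UMIs in all of s3, and the part of B cell transcripts in the Cd74 value was not tested. Lyz2 again rested on the same 2 cells. Of 11 interferon-stimulated genes 9 were lower in Foxp3CNS1- (median -0.22), where 49.9% of all genes were lower and 50.1% higher. The same genes had a median of 0.07 in the other subset cells, and in s3 cells thinned to 1000 UMIs the median was 0.11 from the 4 genes left. Treg core genes were lower in Foxp3CNS1- in 9 of 11 cases (median -0.29), against a median of 0.02 in the other subset cells, and all 9 resting Treg genes were lower (median -0.30, against -0.15 in the other subset cells).

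In colonized mice 31 of 4718 genes (0.657%) were at least 2-fold higher in Foxp3CNS1- s3 cells and 14 (0.297%) lower. Of 34 interferon-stimulated genes 32 were lower in Foxp3CNS1-, where 50.5% of all genes were lower and 49.5% higher, none by 2-fold and with a median of -0.34. The same genes had a median of -0.27 in the other subset cells. Ifit3 was at 102 CPM in Foxp3CNS1- and 186 CPM in Foxp3GFP mice, a log2 ratio of -0.87 (-1.21 to -0.53), Ifi209 at 125 and 210.4 CPM, and Plac8 at 83.1 and 261 CPM. Ccl5 was at 44.4 and 104 CPM in s3 but was higher in Foxp3CNS1- in the other subset cells (114 against 84.4 CPM). Hopx, a factor of effector T cells, was at 27.7 and 59.1 CPM, and Rragc, Lrif1 and Tgoln1 had log2 ratios of -1.37 to -0.98. On the higher side, Gzma, the granzyme A gene, was at 34.6 and 7.2 CPM from 60 UMIs in 15 cells and 5 UMIs in 2 cells, with 58.5% of them in 3 cells. In the other subset cells Gzma was at 112 and 37.9 CPM. Tmem176a was at 42.1 and 14.4 CPM, and Trim44, Senp2, Dusp5, Apopt1, Stk11 and Riox2 had 54 to 124 UMIs over both libraries and log2 ratios of 1.15 to 2.32. Treg core genes were lower in Foxp3CNS1- in 12 of 13 cases, with a median of -0.16, against 0.04 in the other subset cells, and none by 2-fold. Foxp3 was at 98.7 CPM in Foxp3CNS1- and 127 CPM in Foxp3GFP mice, and was lower in Foxp3CNS1- in the other subset cells too. After thinning, 9.95 and 12.2% of the s3 cells held a Foxp3 UMI, with intervals that overlap. In these bulk sums over a subset, fewer cells of a kind and less mRNA per cell cannot be told apart.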

How the data were processed

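Gene UMI counts per cell are those deposited by the authors, who used Cell Ranger, Scanpy 1.5.1 and mm10 per the submitters' processing notes. The counts were not normalized. The authors' cell table gave the library, the filter and both clusterings, and 227 of 17478 cells without a row and 303 removed by the authors were left out. No doublet caller was run here. Counts were summed over s3 and the other cells of each library and divided by the sum of all genes (CPM). A ratio has an exact (Clopper-Pearson) 95% interval from the binomial split of its 2 counts, which covers counting error only. With 1 library per group no test was made. Genes needed 50 UMIs over both sides, and a 2-fold difference was the size rule. For s3 against other cells the direction had to hold in each library. The 20 leading genes had the highest lowest log2 ratio over the libraries, with 0.5 UMI added and a UMI in 10% of s3 cells, and the 12 depleted genes were the converse. Per condition comparison up to 8 genes per direction were named, those whose interval bound nearest 0 was farthest from it. Not ranked were predicted and Y-linked genes, Xist, genes of mitochondria and ribosomal proteins, and those of antigen receptors. Some genes that meet these rules are counted but not reported here. A 0 was replaced by 3 counts for bounds. The members, lists and contrasts were chosen with earlier results of these data known. Promoter windows came from RefSeq, GRCm38.p6. Python 3.11.15, NumPy 2.4.6, SciPy 1.17.1, pandas 2.3.3 and Matplotlib 3.10.9 were used, and the calculations were tested on simulated data.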

Additional observations from a re-analysis of the deposited data

Results flagged for a closer look

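For Cd74, the invariant chain of MHC class II, the ratio of colonized to germ-free mice in s3 had opposite signs in the strains, each interval leaving out 0. Its log2 ratio was -0.59 in Foxp3CNS1- mice and 1.24 in Foxp3GFP mice, and 48.8% of its UMIs in the germ-free libraries lay in 3 cells. Without those 3 cells the Cd74 ratio between the strains in germ-free mice changed sign. The ratios of colonized to germ-free mice were not recomputed without them, so whether the opposite signs hold was not tested. The difference between the strains was not tested, since each group is 1 library.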

How the results depend on the processing

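No paired analysis was possible because each group has 1 library. Of colonized against germ-free genes at least 2-fold apart, 96 in Foxp3CNS1- and 60 in Foxp3GFP mice, the count was 465 and 344 with a minimum of 20 UMIs, 15 and 2 with 200 UMIs, 54 and 13 in cells with a Foxp3 UMI only, and 47 and 25 with cells thinned to 1000 UMIs. Cells of first cluster 0 alone gave 30 in Foxp3GFP mice. For Foxp3CNS1- against Foxp3GFP, with 45 genes in colonized and 16 in germ-free mice, these settings gave 328 and 240, 1 and 0, 16 and 5, 10 and 10, and for cluster 0 14 and 8. Equal weight per cell gave 68 in colonized mice. The interferon-stimulated median between strains in germ-free mice was 0.11 after thinning, from 4 genes, against -0.22. For colonization it stayed between 0.94 and 1.36 in Foxp3CNS1- and between 0.62 and 1.44 in Foxp3GFP mice in the settings run. Cd74 turned to -0.29 between strains in germ-free mice without its 3 richest cells. The share of s3 was 10.8, 6.34, 6.08 and 3.57% of all analysed cells and 13.3, 8.85, 10 and 6.99% among subset cells with a Foxp3 UMI. Of genes 2-fold higher in s3 (57) thinning left 35. Of those lower (543), the count was 285 thinned, 272 against all other analysed cells and 289 in cells with a Foxp3 UMI. Leaving out each library gave 47 to 65 higher, 551 to 650 lower and 20 of 20 leading genes higher. Against the highest other subset 13 of 20 leading genes were higher, with Tmem71 at -0.072, and Igfbp4 was at -0.90 against all other analysed cells. Cells of first cluster 5 or 0 alone and cells without Hspa1a or Hspa1b, left out after seeing the data, kept the sign of every named condition gene with a value. Genes under 50 UMIs and lists under 3 genes got no value.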
